A study of Mus musculus with 15 samples.

Results

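The genes described here are 10 genes of the TNF receptor superfamily and its ligands, measured by RNA sequencing in mouse invariant natural killer T (iNKT) cells sorted from 4 tissues. They were taken by name from a list, which is 10 of the 48795 genes in the deposited tables. Of the members, 8 are receptors (Tnfrsf1a, Tnfrsf1b, Tnfrsf4, Tnfrsf9, Tnfrsf18, Tnfrsf25, Cd27 and Fas), and Ltb and Cd40lg are ligands of the TNF superfamily and not receptors.

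The study profiled iNKT cells of wild-type C57BL/6 mice at 6 weeks of age, untreated as far as the labels say, from thymus (4 samples), spleen (4 samples), mesenteric lymph node (mLN, 4 samples) and inguinal lymph node (iLN, 3 samples). Cells were sorted as positive for the CD1d tetramer loaded with PBS57 and for TCRβ and negative for B220, CD11b, CD11c and CD8. Lymph nodes were briefly digested with collagenase, DNAse and NADase, and cells of spleen and thymus were freed by pressing on a strainer instead, so tissue and preparation cannot be told apart where a lymph node is compared with spleen or thymus. Replicates 3 and 4 form the first batch and replicates 1 and 2 the second, inguinal replicate 1 was not analysed here, and it is not stated if 1 mouse or several went into a replicate, so p-values measure the spread between samples.

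Receptors of this superfamily sit in the cell membrane and bind ligands of the TNF superfamily, most of which are membrane proteins themselves. Members with a death domain in their tail (Fas, Tnfrsf1a and Tnfrsf25) can recruit the adaptors FADD or TRADD, and the others recruit TRAF proteins that lead to NF-kB and MAP kinase signalling. On T cells several of these receptors act as costimulators that support survival and cytokine release after antigen recognition. iNKT cells see lipid antigens on CD1d and fall into NKT1, NKT2 and NKT17 subsets, which differ in their transcription factors and cytokines.

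Total expected counts ranged from 4080550 to 8670570 in 14 samples and came to 1152702 in thymus replicate 2. Of the 48795 genes, 13600 had enough counts to be tested, and all 10 members were among them. Ribosomal RNA and mitochondrial genes took 20% of the counts in spleen replicate 1 and 50.7% in spleen replicate 3, the lowest and highest shares. Levels are therefore compared between samples as CPM, counts in proportion to the TMM-scaled total of the library, and between genes as TPM, transcript proportions that allow for gene length. A floor of 3 counts corresponds to 2.21 CPM in thymus replicate 2 and to 0.37 CPM in thymus replicate 1, and floors cover counting error only.

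The cell type on the label was checked against marker lists. All 7 genes of the T cell and iNKT cell list were above 1 TPM in every sample, with a summed level of 1931 to 3792 TPM and Cd3e as the most abundant gene. Zbtb16, the transcription factor PLZF of iNKT cells, ran from 23.6 to 70.4 TPM over all samples. The summed NKT1 list ran from 818 to 1139 TPM in thymus, 544 to 729 in spleen, 317 to 505 in mLN and 229 to 380 in iLN. The NKT17 list ran from 3.73 to 14.5 TPM in thymus, 1.86 to 16.2 in spleen, 12.4 to 50.0 in mLN and 121 to 322 in iLN. The NKT2 list ran from 84.5 to 250 TPM over all samples, with its highest median, 185 TPM, in mLN.

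Some libraries also held transcripts of other cells. In spleen replicate 1 the B cell list summed to 93.2 TPM and the macrophage and monocyte list to 72.6 TPM, with Lyz2 at 63.5 TPM, against at most 16.9 TPM and 19.96 TPM in the other 14 samples. In thymus replicate 2 the list of immature thymocytes summed to 39.7 TPM. Foxp3 of regulatory T cells reached 13.4 TPM in mLN replicate 2 and at most 4.44 TPM in the other samples. The red cell list was at 68.0 to 340 TPM in all 4 spleen samples and at 3.72 to 66.0 TPM in thymus, against 1.24 to 16.8 TPM in the lymph nodes, so it differed between tissues, and its part in the results was not tested. The stromal and endothelial list rested on Pecam1, with Col1a1 and Cdh5 at 0 in every lymph node sample. In bulk samples such as these, fewer cells of a type and less RNA per cell cannot be told apart.

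**Figure D1:**
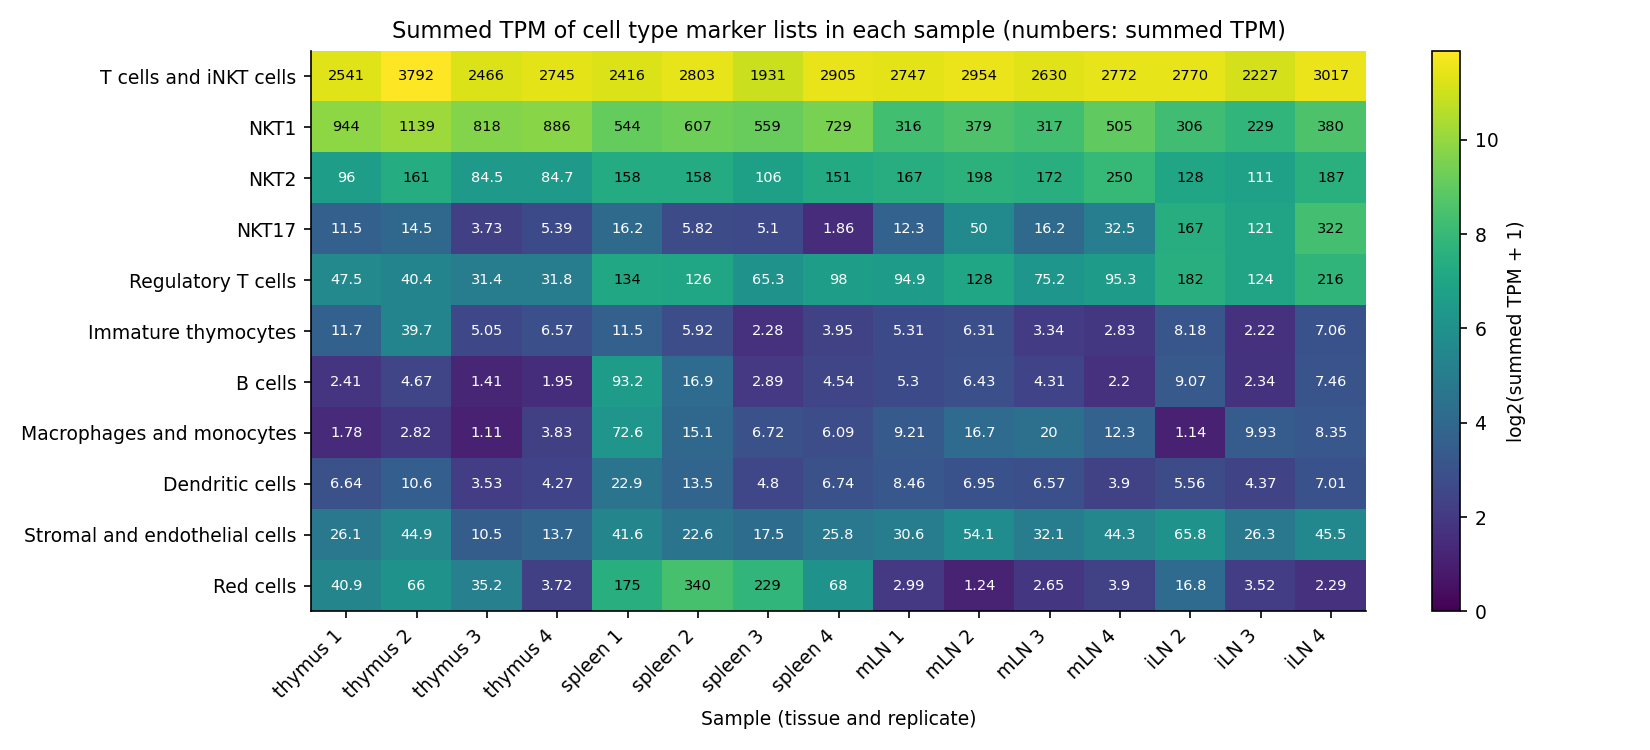
Summed TPM of each cell type marker list (vertical) in each of the 15 samples (horizontal), with the sum printed in each cell and the colour giving its log2(TPM + 1). The T cell and iNKT cell list is at 1931 TPM or above in every sample, and the NKT17 list is at 121 TPM or above in the 3 iLN samples and at 50.0 TPM or below elsewhere.

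On the TPM scale the members spanned a wide range of levels. Cd27, a costimulatory receptor for CD70, had the highest mean level over the 15 samples at 189 ± 45.2 TPM (SD), and it was the first of the 10 in 14 samples. Cd40lg, the ligand that T cells present to CD40 on B cells and dendritic cells, followed at 125 ± 34.5 TPM and was the highest in iLN replicate 4. Tnfrsf18 came next at 69.2 ± 29.9 TPM. These steps were larger than the SD of either gene, with Cd27 above Cd40lg in 14 of 15 samples and Cd40lg above Tnfrsf18 in 14 of 15.

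From Tnfrsf18 down to Fas, neighbours in the order did not differ beyond their spread over samples. Mean levels were 52.6 TPM for Ltb, 46.01 for Tnfrsf1b, 29.5 for Tnfrsf9, 18.2 for Tnfrsf1a, 13.6 for Tnfrsf25 and 12.2 for Fas. Tnfrsf4 was lowest at 4.16 ± 4.86 TPM, below Fas in 13 of 15 samples and last of the 10 in 13. The 8 receptors together summed to 268 to 532 TPM in a sample, and Cd27 made up 36.7% to 61.8% of that sum.

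**Figure D2:**
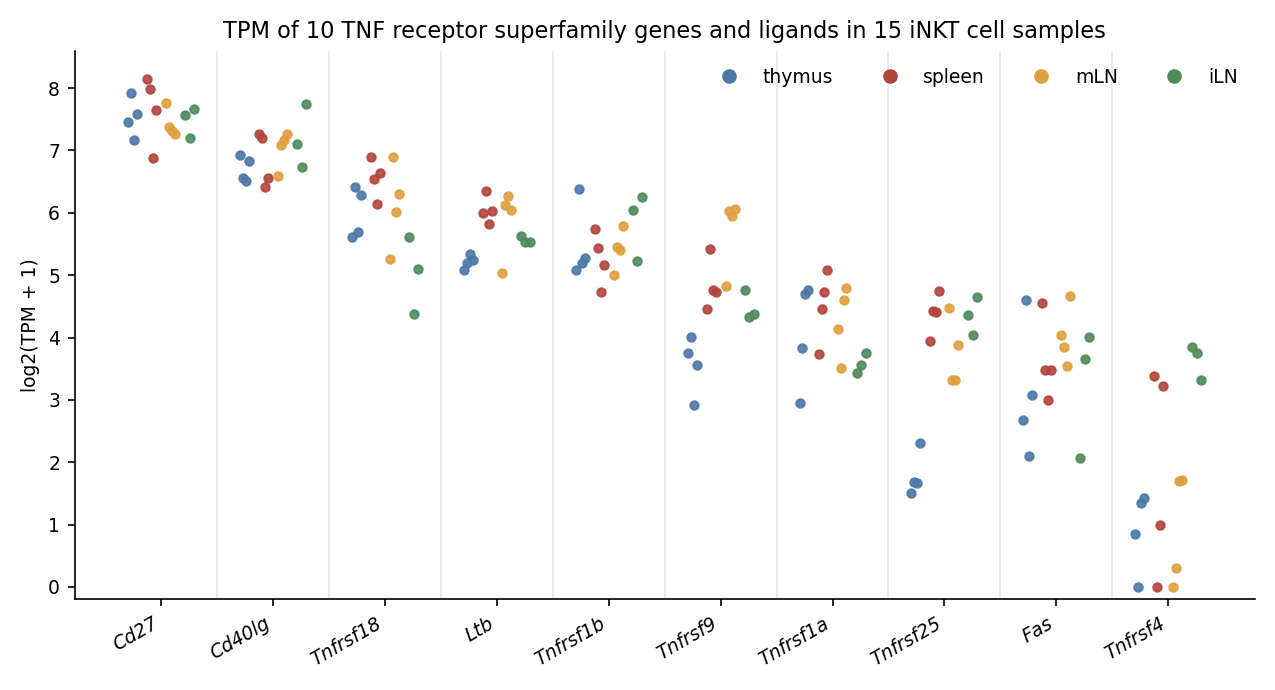
Level of each member as log2(TPM + 1) on the vertical axis, genes ordered by mean TPM on the horizontal axis, 1 point per sample coloured by tissue. Cd27 (mean 189 TPM) and Cd40lg (125 TPM) lie at the top and Tnfrsf4 (4.16 TPM) at the bottom, and the thymus points of Tnfrsf25 and Tnfrsf9 lie below those of the other tissues.

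Ranks by mean TPM differed between tissues for a few members, though several of these steps were within the spread over samples. Tnfrsf9 ranked 5 of 10 in mLN at 54.7 TPM and 7 in thymus at 11.2 TPM. In both tissues it did not differ from its neighbours beyond their spread. In iLN the steps from Tnfrsf1b to Ltb and from Ltb to Tnfrsf18 were also within the spread. In iLN, Tnfrsf1b ranked 3 at 59.0 ± 20.2 TPM (SD, n = 3) and Tnfrsf18 ranked 5 at 33.8 ± 14.1 TPM, whereas Tnfrsf18 ranked 3 in each of the other tissues. Tnfrsf4 ranked 8 in iLN at 11.6 TPM, close to Tnfrsf1a at 11.1 and Fas at 9.98 TPM, and was last in the other tissues.

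Each pair of tissues was compared with edgeR in 1 fit with tissue and batch as terms, and a gene was called at an adjusted p under 0.01 over all genes tested and a fold over 1.5. Thymus against spleen called 1 of 10 members (Tnfrsf25), where 1.32% of all genes tested were called. In mLN against thymus 2 members were called (Tnfrsf9 and Tnfrsf25, 1.6% of all genes), in iLN against thymus 1 (Tnfrsf25, 1.5%) and in iLN against spleen 1 (Tnfrsf18, 1.55%). In mLN against spleen edgeR called 0 members (0.654% of all genes), with 2 at an unadjusted p under 0.05 (12.2% of all genes) and 0 calls by DESeq2 (1.82%) or by limma on log2 TPM (0.11%). In iLN against mLN edgeR called 0 members (0.471% of all genes), with 5 at an unadjusted p under 0.05 (13.8% of all genes), 2 calls by DESeq2 (Tnfrsf9 and Tnfrsf18, 2.03% of all genes) and 0 by limma (0.316%). These comparisons share samples, since each tissue enters 3 of the 6 pairs.

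The members' log2 fold changes are read beside those of all genes tested. They include Tnfrsf4, whose counts in mLN are at or under the floor of 3 counts. In thymus against spleen 9 of 10 members were below 0, with a median of −0.50 against −0.01 over all genes. The median was 0.18 in mLN against thymus and 0.26 in iLN against thymus, with 7 of 10 members above 0 in each, against 0.03 over all genes in both. In mLN against spleen, iLN against spleen and iLN against mLN it was −0.27, −0.21 and −0.11 over the members, with 4, 3 and 5 of 10 above 0, against 0.00, 0.01 and 0.00 over all genes. Over all 4 tissues at once, an edgeR F test at an adjusted p under 0.01 called 2 of 10 members, Tnfrsf9 (adjusted p = 0.00104) and Tnfrsf25 (adjusted p = 0.00129), where 3.38% of all genes were called. Without thymus replicate 3 that count was 1, Tnfrsf9, beside 327 of 13547 genes. With all samples Tnfrsf18 missed the threshold with an edgeR adjusted p of 0.0181. Tnfrsf18 was the 1 added to make 3 members called without mLN replicate 1 (493 of 13494 genes), without mLN replicate 2 (432 of 13487), with a replicate block in the fit (398 of 13600) and by DESeq2 (1002 of 13600), against 459 of 13600 genes with all samples in edgeR.

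**Figure D3:**
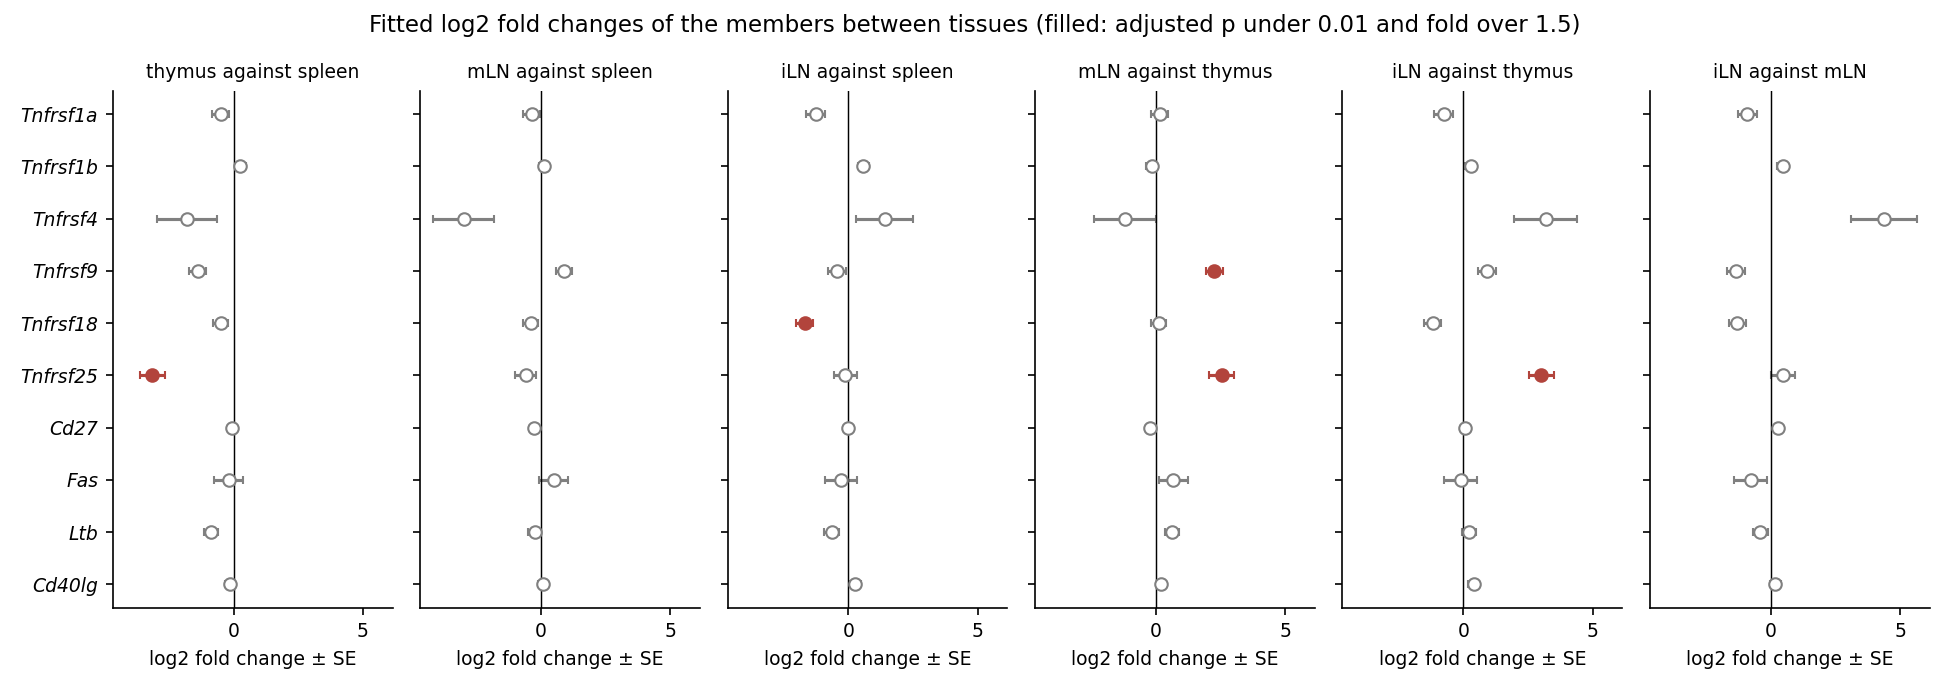
Fitted log2 fold change of each member (vertical) in the 6 tissue pairs (panels), with bars of 1 SE and filled points for genes called by edgeR. Tnfrsf4 is plotted with the rest, though its counts in mLN are at or under the floor of 3 counts. The 5 filled points are Tnfrsf25 in 3 panels (−3.13, 2.54 and 3.01), Tnfrsf9 in mLN against thymus (2.26) and Tnfrsf18 in iLN against spleen (−1.69).

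Tnfrsf25, also called DR3, is a receptor with a death domain that binds TL1A and costimulates T cells. It lies on chromosome 4 at 152115934-152120119 on the plus strand (ENSMUSG00000024793, GRCm38). Its level in thymus was 2.098, 0.735, 2.204 and 4.553 CPM in replicates 1 to 4, which rest on 17, 1, 8 and 24 counts. In spleen Tnfrsf25 was at 11.9, 20.7, 29.2 and 29.7 CPM. In mLN it was at 22.8, 9.14, 10.2 and 14.8 CPM, and in iLN at 19.0, 22.2 and 22.8 CPM in replicates 2 to 4. All 4 thymus samples were below all 11 others, and the other 3 tissues overlapped. The value of thymus replicate 2 is under that library's floor of 2.21 CPM.

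The order of mean Tnfrsf25 levels was spleen (22.9 CPM), iLN (21.3), mLN (14.2) and thymus (2.40), and spleen and iLN did not differ beyond their spread. Tnfrsf25 was lower in thymus than in spleen by a log2 fold change of −3.13 (SE 0.47, adjusted p = 5.05e-04 by edgeR). It was higher in iLN than in thymus by 3.01 (SE 0.49, adjusted p = 0.00108 by edgeR) and in mLN than in thymus by 2.54 (SE 0.47, adjusted p = 0.00324 by edgeR), both on the log2 scale. The mLN difference was no longer called without thymus replicate 1 (2.51, edgeR adjusted p = 0.0191), replicate 2 (2.36, 0.0128) or replicate 3 (2.43, 0.0188).

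Within the first batch the log2 fold changes of Tnfrsf25 were −3.09 for thymus against spleen, 1.84 for mLN against thymus and 2.69 for iLN against thymus. Within the second batch they were −3.31, 3.28 and 3.51, with 1 iLN sample. All 6 had the sign of the fit over both batches, and none was called by edgeR, with adjusted p from 0.0107 to 0.364. Marker lists also differed between thymus and the other tissues. The summed list of regulatory T cell genes was at 31.4 to 47.5 TPM in thymus and at 65.3 to 216 TPM elsewhere. In thymus 2 of its 6 genes were above 1 TPM. Ikzf2 and Il2ra were its most abundant genes, with medians of 33.2 and 2.935 TPM in thymus and 57.7 and 50.5 TPM in spleen. Lrrc32, Gpr83 and Ctla4 were at 1.62 TPM or less in all thymus and spleen samples, and Foxp3 at 0.8 TPM or less. The list median was 112 TPM in spleen and 182 TPM in iLN, between which Tnfrsf25 did not differ beyond its spread. The NKT1 list was highest in thymus. Their part in the levels of Tnfrsf25 was not tested.

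Tnfrsf9, also called CD137, is a costimulatory receptor that T cells put on their surface after activation. It lies on chromosome 4 at 150914562-150946102 on the plus strand (ENSMUSG00000028965), where its span overlaps Camta1 on the other strand with 0 shared exonic bases. Thymus replicates 1 to 4 had 17.6, 16.9, 12.4 and 18.4 CPM of Tnfrsf9, and spleen replicates 21.6, 55.8, 55.3 and 38.6 CPM. The mLN replicates had 41.6, 92.7, 90.3 and 91.5 CPM, and the iLN replicates 34.99, 36.8 and 23.1 CPM. Tnfrsf9 was lower in the 4 thymus samples than in all 11 others, and every mLN sample was above every iLN sample. Spleen overlapped with both lymph node tissues, and mLN replicate 1 lay apart from the other mLN samples.

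Mean Tnfrsf9 levels were in the order mLN (79.0 CPM), spleen (42.8), iLN (31.6) and thymus (16.3), and spleen and iLN were the neighbours that did not differ beyond their spread. In mLN against thymus, Tnfrsf9 was higher by a log2 fold change of 2.26 (SE 0.33, adjusted p = 3.67e-04 by edgeR). Within the first batch the value was 2.54 (edgeR adjusted p = 0.00505) and within the second 1.96 (edgeR adjusted p = 0.255). In thymus against spleen the log2 fold change was −1.38 (SE 0.33) and missed the threshold (edgeR adjusted p = 0.0257), with −1.61 and −1.17 in the first and the second batch. Without spleen replicate 1, the library with B cell and macrophage transcripts, it was −1.61 and passed (edgeR adjusted p = 0.00713), and DESeq2 called it with all samples (−1.37, adjusted p = 0.0022).

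Between the lymph nodes, Tnfrsf9 had a log2 fold change of −1.33 in iLN against mLN (SE 0.35, adjusted p = 0.0653 by edgeR), and −1.61 and −0.95 within the batches. DESeq2 called this difference of Tnfrsf9 (adjusted p = 0.00982), as did edgeR with no filter on low counts (adjusted p = 0.00394). The summed NKT2 list was at 167 to 250 TPM in mLN, 111 to 187 TPM in iLN and 84.5 to 161 TPM in thymus. In medians 3 of its 5 genes were higher in mLN than in iLN, Plac8 (67.6 and 12.7 TPM), Il17rb (45.7 and 38.9) and Il4 (23.1 and 19.4), and 2 were lower, Gata3 (45.8 and 54.1) and Il13 (1.49 and 5.68). The macrophage and monocyte list was at 9.21 to 19.96 TPM in mLN and 1.11 to 3.83 TPM in thymus. The regulatory T cell list was at 75.2 to 128 TPM in mLN and 31.4 to 47.5 TPM in thymus. The NKT1 list was at 317 to 505 TPM in mLN and 818 to 1139 TPM in thymus. The part of these lists in the Tnfrsf9 levels was not tested. Foxp3 stood at 13.4 TPM in mLN replicate 2, whose Tnfrsf9 level (92.7 CPM) was near those of replicates 3 and 4 (90.3 and 91.5 CPM).

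**Figure D4:**
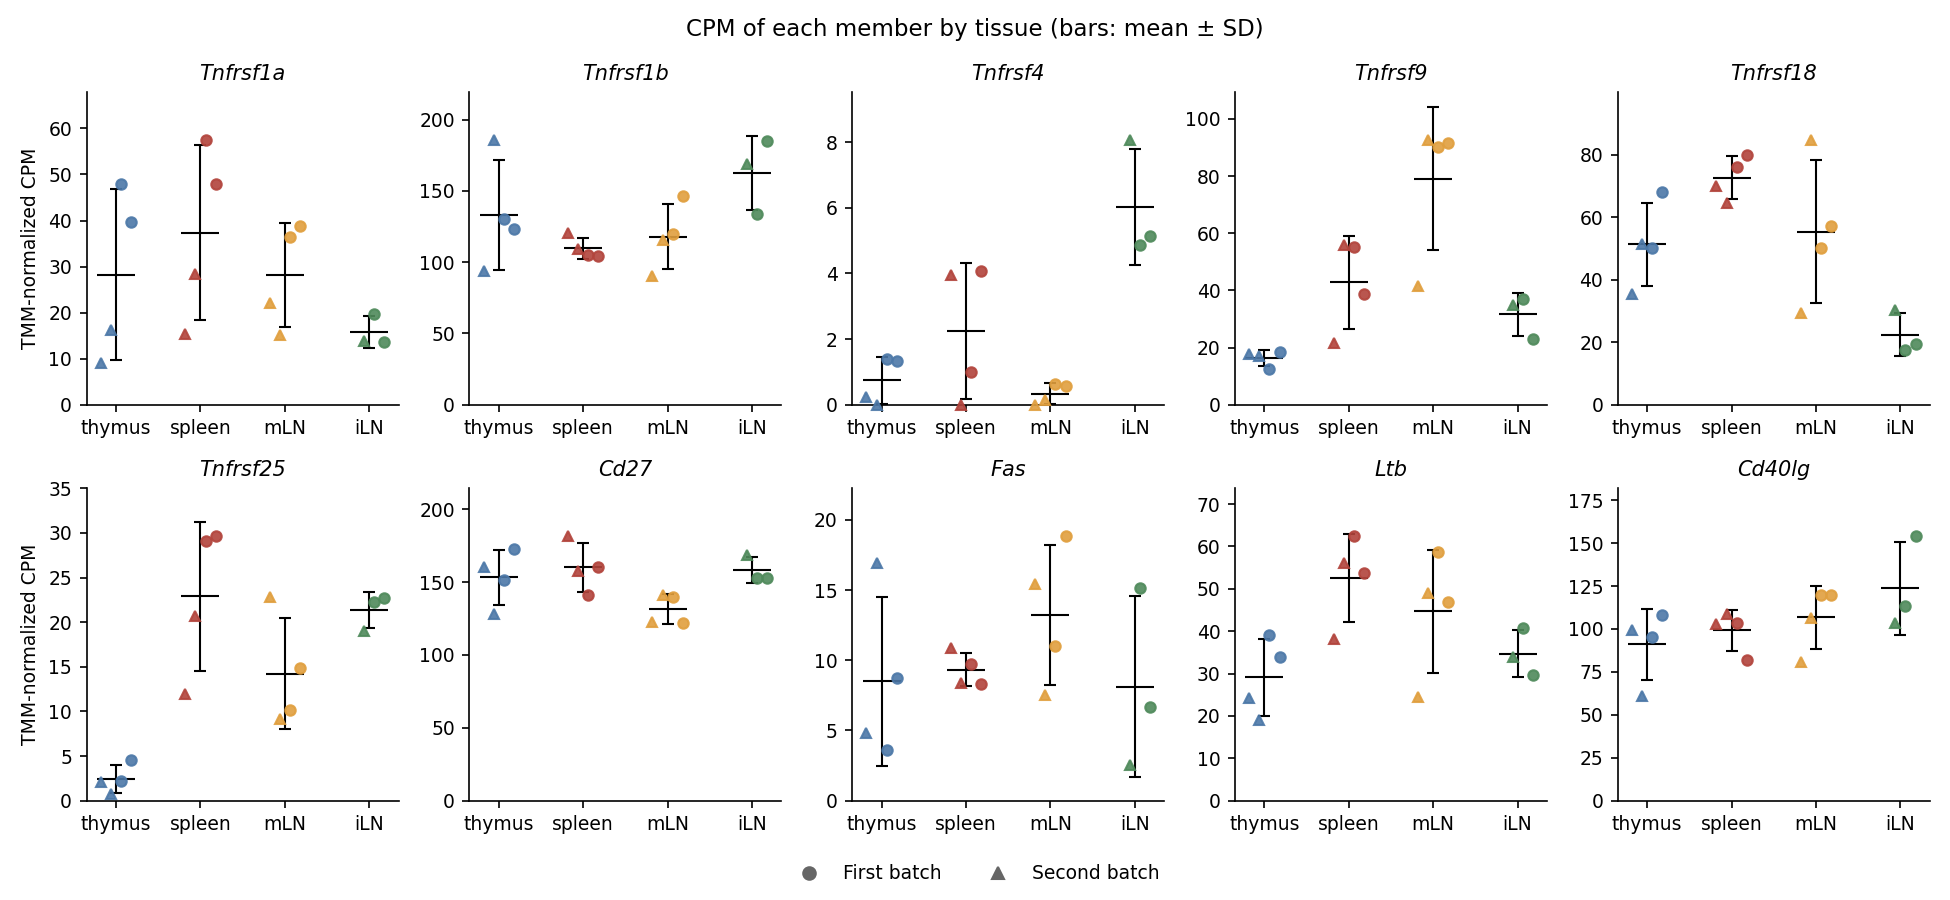
Level of each member in TMM-scaled CPM (vertical) by tissue (horizontal), 1 point per sample, circles for the first and triangles for the second batch, with bars at the mean ± SD. Thymus lies below every other sample for Tnfrsf25 (at most 4.55 CPM) and Tnfrsf9 (at most 18.4 CPM), and iLN lies above every other sample for Tnfrsf4 (at least 4.88 CPM).

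Tnfrsf25, Tnfrsf9, Ltb and Cd40lg were the members with their lowest mean CPM in thymus. For Ltb and Cd40lg that step was within the spread and no comparison was called. The sequences before the starts are shown for description. RefSeq sequences (GRCm38.p6) were found for 9 of the 10 members, and Cd40lg had no entry. Each run is the part of the 250 bases before the start that lies outside GENCODE exons, written 5′ to 3′ on the plus strand, which is the strand of these genes. Capitals mark matches to the NF-kB motif on either strand. The runs are chr4:152115684-152115933 and chr4:152116115-152116342 before 2 starts of Tnfrsf25, chr4:150919905-150920154 before the first listed start of Tnfrsf9 and chr17:35194257-35194438 before Ltb.
Tnfrsf25, start a: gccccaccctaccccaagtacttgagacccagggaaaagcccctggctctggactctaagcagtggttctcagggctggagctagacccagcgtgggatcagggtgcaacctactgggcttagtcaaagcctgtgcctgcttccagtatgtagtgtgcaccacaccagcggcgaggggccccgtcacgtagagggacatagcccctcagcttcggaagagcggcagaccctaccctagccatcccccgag
Tnfrsf25, start b: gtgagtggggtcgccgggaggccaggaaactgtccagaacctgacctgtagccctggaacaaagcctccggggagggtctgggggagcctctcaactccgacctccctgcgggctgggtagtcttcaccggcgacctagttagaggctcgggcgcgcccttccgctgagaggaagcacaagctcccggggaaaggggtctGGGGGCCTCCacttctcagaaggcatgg
Tnfrsf9: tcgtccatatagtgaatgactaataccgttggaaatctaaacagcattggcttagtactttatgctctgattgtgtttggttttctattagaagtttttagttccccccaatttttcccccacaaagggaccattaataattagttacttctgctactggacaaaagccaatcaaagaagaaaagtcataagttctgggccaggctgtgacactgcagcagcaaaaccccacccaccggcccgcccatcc
Ltb: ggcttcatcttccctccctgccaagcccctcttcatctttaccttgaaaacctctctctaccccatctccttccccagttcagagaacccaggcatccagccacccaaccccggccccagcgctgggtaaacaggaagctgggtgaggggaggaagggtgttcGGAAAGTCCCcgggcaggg
The NF-kB letters begin 28 bases before start b of Tnfrsf25 and 87 bases before the start of Ltb, and start a of Tnfrsf25 and the printed start of Tnfrsf9 had no match. The starts of Cd27, Fas, Tnfrsf18, Tnfrsf1a, Tnfrsf1b and Tnfrsf4, which are not printed, had no NF-kB match either. A further start of Tnfrsf9, at which the matching letters lie inside annotated exons, had 3 overlapping NF-kB matches and is not printed. The NF-kB motif was in 7.25% and the AP-1 motif TGANTCA in 6.75% of 32851 promoters of the same length. AP-1 letters were found at that further start of Tnfrsf9, 15 bases before it, and 211 bases before the start of Fas. A match describes letters and is not evidence of a bound site.

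Tnfrsf18, also called GITR, is a costimulatory receptor that is abundant on regulatory T cells. It lies on chromosome 4 at 156026164-156028895 on the plus strand (ENSMUSG00000041954) and shares 414 exonic bases with the antisense gene Gm16008, which held 97.1 counts over all samples. The strand used in counting is not stated, so reads of either gene in those bases cannot be told apart. Thymus replicates 1 to 4 had 35.4, 51.5, 50.1 and 68.1 CPM of Tnfrsf18, and spleen replicates 70.1, 64.5, 76.0 and 79.9 CPM. The mLN replicates had 29.3, 84.7, 50.1 and 57.2 CPM, and the iLN replicates 30.3, 17.6 and 19.3 CPM. The iLN samples were below all thymus and spleen samples and overlapped with mLN through mLN replicate 1 alone. In TPM, iLN replicate 2 (48.1) was just above thymus replicate 1 (47.9). The highest value, 84.7 CPM, was from mLN replicate 2, the library with Foxp3 at 13.4 TPM. The whole list of regulatory T cell genes summed to 128 TPM there and to 124 to 216 TPM in iLN, where Tnfrsf18 was lowest, and its part in these levels was not tested.

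Mean Tnfrsf18 levels were 72.6 CPM in spleen, 55.4 in mLN, 51.3 in thymus and 22.4 in iLN, where the steps from spleen to mLN and from mLN to thymus were within their spread and the step from thymus to iLN was larger. In iLN against spleen Tnfrsf18 was lower by a log2 fold change of −1.69 (SE 0.33, adjusted p = 0.00557 by edgeR). It was −2.09 within the first batch (edgeR adjusted p = 0.00319) and −1.17 within the second (edgeR adjusted p = 0.626). The call was lost without spleen replicate 1 (edgeR adjusted p = 0.0122), 2 (0.0101), 3 (0.016) or 4 (0.0215) and without iLN replicate 3 (0.0269) or 4 (0.0309), with log2 fold changes between −1.75 and −1.54. It was also lost by limma on log2 TPM (−1.49, adjusted p = 0.0519).

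Against thymus and mLN the iLN difference of Tnfrsf18 missed the threshold with all samples and the filter on low counts. The log2 fold change was −1.19 against thymus (SE 0.33, adjusted p = 0.0524 by edgeR), with −1.69 in the first batch, which edgeR called (adjusted p = 0.00751), and −0.51 in the second, not called. With no filter it also passed (edgeR adjusted p = 0.00672). It was −1.30 against mLN (SE 0.33, adjusted p = 0.0549 by edgeR), with −1.54 and −0.92 within batches, neither called. DESeq2 called it (adjusted p = 0.00563), as did edgeR with no filter (adjusted p = 0.00233). The NKT17 list was at 121 to 322 TPM in the iLN samples and at 50.0 TPM or less in all others. Its part in the Tnfrsf18 levels was not tested.

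Tnfrsf4, also called OX40, is a costimulatory receptor of activated T cells. It lies on chromosome 4 at 156013843-156016612 on the plus strand (ENSMUSG00000029075). Counts of Tnfrsf4 were 2, 0, 5 and 7 in thymus, 40, 0, 4 and 20 in spleen, 0, 1, 3 and 3 in mLN and 45, 18 and 30 in iLN. In CPM the iLN samples had 8.07, 4.88 and 5.13, the spleen samples 3.95, 0, 0.997 and 4.07, the thymus samples 0.247, 0, 1.38 and 1.33, and the mLN samples 0, 0.145, 0.624 and 0.578. All 3 iLN samples were above all 12 others in CPM, and the other tissues overlapped. In TPM iLN and spleen overlapped, with 8.93 in iLN replicate 4 and 9.42 in spleen replicate 1.

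The counts of Tnfrsf4 in mLN are at or under the floor of 3 counts per library, so no fold change is given for it. The edgeR adjusted p of Tnfrsf4 was 0.0952 in iLN against mLN and higher in the other comparisons. In spleen replicate 2, the 0 counts allow up to 0.451 CPM, under the 3.95 and 4.07 CPM of spleen replicates 1 and 4.

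Tnfrsf1a and Tnfrsf1b are the receptors for TNF and lymphotoxin alpha, the former with a death domain and the latter without. Tnfrsf1a was at 13.8, 19.8 and 13.7 CPM in iLN, and at 9.01 to 47.9 CPM in thymus, 15.4 to 57.6 in spleen and 15.2 to 38.9 in mLN. Its lowest mean was in iLN (15.8 CPM), and all tissues overlapped. In thymus, spleen and mLN every sample of the first batch was above every sample of the second, with means of 43.8 and 12.6 CPM in thymus, 52.8 and 21.9 in spleen and 37.7 and 18.7 in mLN. In iLN the means were 16.7 and 13.8 CPM, the latter from 1 sample. Within the first batch the iLN samples were below all others, the lowest of which was mLN replicate 3 at 36.4 CPM. Within the second, iLN lay between the thymus values of 9.01 and 16.2 CPM. In iLN against spleen the log2 fold change of Tnfrsf1a was −1.26 (SE 0.36, adjusted p = 0.0603 by edgeR), with −1.68 in the first batch and −0.68 in the second. Its edgeR adjusted p ran up to 0.913 in the other comparisons.

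Tnfrsf1b had a mean of 163 CPM in iLN, 133 in thymus, 118 in mLN and 110 in spleen, and no neighbours in this order differed beyond their spread. The edgeR adjusted p of Tnfrsf1b was from 0.17 to 0.901 over the 8 comparisons. The ratio of Tnfrsf1b to Tnfrsf1a in TPM was 6.62, 3.38 and 6.02 in iLN replicates 2 to 4 and between 0.993 and 6.22 in the 12 other samples. Thymus replicates 1 and 2 had ratios of 4.90 and 6.22, spleen replicate 1 of 4.24 and mLN replicate 2 of 4.11, so iLN overlapped with all 3 other tissues.

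Cd27 supports the survival of T cells when it is bound by CD70, whose gene Cd70 was listed at 0 in all 15 samples. Cd27 lies on chromosome 6 at 125232622-125237010 on the minus strand (ENSMUSG00000030336), and shares 129 bases of its exons with Mir8113, which held 9.2 counts over all samples. Its level ran from 122 CPM in mLN replicate 4 to 182 CPM in spleen replicate 1. Mean levels were 160 CPM in spleen, 158 in iLN, 153 in thymus and 132 in mLN, and in CPM all tissues overlapped apart from iLN and mLN, where 141 CPM was the highest mLN value and 153 CPM the lowest iLN value. The edgeR adjusted p of Cd27 was from 0.425 to 0.981 over the 8 comparisons, which does not show that its levels did not differ.

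Fas, whose death domain starts apoptosis when FasL binds it, was at 2.51 to 18.9 CPM over the 15 samples. Samples of 1 tissue spread widely, with 4.81, 16.9, 3.58 and 8.73 CPM in thymus and 2.51, 15.2 and 6.67 CPM in iLN, and all tissues overlapped. The value of 16.9 CPM is from thymus replicate 2, the shallowest library. The edgeR adjusted p of Fas was from 0.635 to 0.965.

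Of the ligands, Ltb encodes lymphotoxin beta, which forms a membrane complex with lymphotoxin alpha and binds the lymphotoxin beta receptor of stromal cells. Ltb was at 24.2, 19.1, 39.1 and 33.96 CPM in thymus and at 38.1, 56.1, 62.5 and 53.7 CPM in spleen. The mLN samples had 24.4, 48.9, 58.7 and 47 CPM and the iLN samples 33.9, 40.6 and 29.6 CPM. In CPM thymus and spleen overlapped through thymus replicate 3 and spleen replicate 1, and mLN replicate 1 was lower than the other mLN samples. In TPM thymus (32.8 to 39.3) and spleen (55.4 to 80.7) did not overlap. In thymus against spleen the log2 fold change of Ltb was −0.87 (SE 0.26, adjusted p = 0.101 by edgeR), with −0.68 in the first batch and −1.11 in the second.

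Cd40lg lies on the X chromosome (ENSMUSG00000031132) and was at 61.0 to 108 CPM in thymus, 82.0 to 109 in spleen, 80.7 to 120 in mLN and 103 to 154 in iLN. Mean Cd40lg levels were 124 CPM in iLN, 107 in mLN, 99.1 in spleen and 91.1 in thymus, and no neighbours in this order differed beyond their spread. Its edgeR adjusted p was from 0.345 to 0.918 over the 8 comparisons.

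The 7 lymph node samples were also set against the 8 spleen and thymus samples. The edgeR fit called 0 of 10 members, where 1.72% of all genes were called, with 4 members at an unadjusted p under 0.05 (17.6% of all genes), 2 calls by DESeq2 (Tnfrsf9 and Tnfrsf25, 3.51% of all genes) and 0 by limma on log2 TPM (0.757%). The log2 fold change of Tnfrsf9 was 0.91 (SE 0.23, adjusted p = 0.0329 by edgeR) and passed without mLN replicate 1 (1.02, adjusted p = 0.00908) and with no filter on low counts (0.00197). That of Tnfrsf18 was −0.79 (SE 0.22, adjusted p = 0.0453 by edgeR), and it passed without mLN replicate 2 (−0.97, adjusted p = 0.00872), the library with Foxp3 at 13.4 TPM, with no filter (0.00596) and in the first batch alone (−1.12, 0.00957). That of Tnfrsf25 was 1.21 (SE 0.32, adjusted p = 0.0354 by edgeR).

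Within the first batch these values were 0.94 for Tnfrsf9, −1.12 for Tnfrsf18 (called, edgeR adjusted p = 0.00957) and 0.72 for Tnfrsf25, and within the second 0.90, −0.38 and 1.74. For Tnfrsf9 and Tnfrsf25 the lymph nodes and the spleen overlapped, with thymus below both.

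A two-sided exact permutation test on log2(TPM + 1) gave the same grouping a second reading. It ignores batch, replicate number and the tissues within each group. Tnfrsf9 ranged from 19.2 to 65.9 TPM with a median of 27.3 in lymph nodes, and from 6.55 to 41.7 TPM with a median of 17.98 in spleen and thymus. The ranges overlapped, and the difference of means was 0.99 on the log2 scale (exact permutation p = 0.0333, unadjusted, over 6435 arrangements). Permuted within replicate numbers, Tnfrsf9 had an exact permutation p of 0.0478 over 648 arrangements. Tnfrsf9 was the 1 member of 10 under 0.05, where 9.69% of all genes tested were under 0.05, so the count of members was near that share, with 0.0866 for Tnfrsf18 and 0.127 for Tnfrsf25 by the same exact permutation test. For Tnfrsf9 the exact permutation p was 0.0524, 0.0606 and 0.0571 without thymus replicates 1, 3 and 4 and 0.0689, 0.0683 and 0.0689 without mLN replicates 2, 3 and 4. Without spleen replicate 1 or mLN replicate 1 the count was 2, Tnfrsf9 and Cd40lg. The share of 9.69% is that of all samples. No share over all genes stands beside the counts without 1 library, which are not read as a result about the members.

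Further genes of the pathway were taken from lists of 20 other receptors, 16 other ligands and 20 adaptors and regulators. Of the other receptors 11 were tested and edgeR called 0 in each of the 8 comparisons (0.471% to 3.38% of all genes), with 0 to 5 at an unadjusted p under 0.05 (10.6% to 19.4% of all genes), 0 calls by limma on log2 TPM (0.11% to 1.6%), and 1 call by DESeq2, Tnfrsf21, in iLN against spleen (4.09% of all genes), in iLN against mLN (2.03%) and over the 4 tissues (7.37%). The highest by mean TPM were Tnfrsf22 (58.7), Tnfrsf26 (12.7) and Tnfrsf13b (10.9), and 4 receptors, Tnfrsf11b, Tnfrsf17, Eda2r and Edar, were at 0 in all 15 samples. Of the other ligands 9 were tested, with Fasl (48.2 TPM), Tnfsf14 (38.6) and Tnfsf10 (34.9) the highest. All 20 adaptors and regulators were tested, with the highest mean TPM in Cflar (189), an inhibitor of caspase-8, Rnf31 (107), a subunit of the linear ubiquitin ligase, and Casp8 (100.9). The tissue means of Rnf31 were 102.5 to 215 TPM in the second batch and 36.2 to 65.5 TPM in the first. In CPM the second and first batch had means of 46.05 and 48.03 in thymus and 75.9 and 53.1 in spleen. They had 74.9 and 40.4 CPM in mLN and 37.9 (1 sample) and 25.2 CPM in iLN. Thymus replicate 2, of the second batch, was at 50.1 TPM, within the 27.5 to 89.4 TPM of the first-batch samples. The median of Rnf31, 51.2 TPM, was below that of Casp8 (103.2 TPM). In thymus against spleen the median log2 fold change was −0.25 over the other receptors, −0.78 over the other ligands and −0.11 over the adaptors and regulators, against −0.01 over all genes tested. In iLN against spleen these medians were 0.29, −0.58 and −0.29, against 0.01 over all genes. In mLN against thymus they were 0.29, 0.47 and 0.16, and in iLN against thymus 0.53, −0.11 and −0.32, against 0.03 in both. In mLN against spleen they were 0.02, −0.50 and −0.06, and in iLN against mLN 0.69, −0.37 and −0.31, against 0.00 in both. In lymph nodes against spleen and thymus they were 0.29, 0.04 and −0.02, against 0.02.

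Fasl, the ligand of Fas, was the 1 of the 9 other ligands that edgeR called in a pair of tissues, in iLN against spleen (1.55% of all genes) and against thymus (1.5%). DESeq2 also called Tnfsf11 in mLN against spleen (1.82% of all genes) and Tnfsf10 in mLN (3.04%) and in iLN against thymus (3.47%). The Fasl level was 65.7, 97.0, 113 and 85.6 CPM in thymus and 74.9, 79.7, 87.7 and 85.8 CPM in spleen, and 63.3, 66.0, 43.5 and 48.5 CPM in mLN and 30.9, 29.5 and 29.4 CPM in iLN. All iLN samples were below all 12 others. Fasl was lower in iLN than in spleen by a log2 fold change of −1.45 (SE 0.23, adjusted p = 9.71e-04 by edgeR) and lower than in thymus by −1.59 (SE 0.23, adjusted p = 3.88e-04 by edgeR). Within the first batch these were −1.58 and −1.76 and were called, and within the second they were −1.34 and −1.39 and were not (edgeR adjusted p = 0.354 and 0.456). The difference from spleen was not called by limma on log2 TPM (−1.33, adjusted p = 0.0139).

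In the 7 lymph node samples against the 8 others, edgeR called 2 of the 9 other ligands, both lower (1.72% of all genes). DESeq2 called 3 (3.51% of all genes), with Tnfsf11, the ligand RANKL, as the third, whose log2 fold change was above 0 at 1.90 (SE 0.44, adjusted p = 0.0158 by edgeR). By limma on log2 TPM 1 was called (0.757% of all genes). Fasl was at −1.08 on the log2 scale (SE 0.15, adjusted p = 2.39e-04 by edgeR), with −1.34 and −0.83 within the batches (the second not called, edgeR adjusted p = 0.333). Tnfsf10, the ligand TRAIL, was at −0.71 (SE 0.15, adjusted p = 0.00699 by edgeR), with −0.73 and −0.70 within the batches, neither called (edgeR adjusted p = 0.0814 and 0.331). The call of Tnfsf10 was lost on leaving out any 1 library except thymus replicate 1, mLN replicate 2 or iLN replicate 3, with edgeR adjusted p from 0.0106 to 0.0248. The NKT1 list had medians of 915 TPM in thymus, 583 in spleen, 348 in mLN and 306 in iLN. Fasl had this order of medians in CPM and Tnfsf10 in TPM. In TPM the Fasl median was 59.35 in thymus and 62.08 in spleen. In CPM the Tnfsf10 median was 87.1 in mLN and 96.4 in iLN. The part of the NKT1 list in the levels of Fasl and Tnfsf10 was not tested.

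Traf1, an adaptor that binds Tnfrsf9 and other receptors of the family, was the 1 of 20 adaptors and regulators that edgeR called in a pair of tissues, in thymus against spleen (1.32% of all genes) and in iLN against thymus (1.5%). DESeq2 called Traf1 also in mLN against spleen (1.82% of all genes), Birc3 in thymus against spleen (2.85%) and Tank over the 4 tissues (7.37%). Traf1 was at 34.3, 45.6, 69.7 and 52.9 CPM in thymus and at 103, 152, 93.7 and 106 CPM in spleen. It was at 61.5, 54.6, 62.0 and 63.8 CPM in mLN and at 109, 98.3 and 115 CPM in iLN. Every spleen and iLN sample was above every thymus and mLN sample in CPM, while in TPM spleen replicate 3 (33.3) and iLN replicate 3 (42.9) were below mLN replicate 4 (45.2). In thymus against spleen the log2 fold change of Traf1 was −1.19 (SE 0.21, adjusted p = 0.0031 by edgeR), with −0.72 in the first batch and −1.70 in the second. That call was lost without thymus replicate 1 (−1.01, edgeR adjusted p = 0.0195), 2 (−1.16, 0.0171) or 4 (−1.19, 0.0133) and without spleen replicate 2 (−0.98, 0.0155), and by limma on log2 TPM (−1.09, 0.0892).

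In iLN against thymus Traf1 was higher by a log2 fold change of 1.08 (SE 0.23, adjusted p = 0.00968 by edgeR), with 0.79 and 1.45 within the batches. With a replicate block in the fit it was 1.03 and missed the threshold (edgeR adjusted p = 0.0211). It missed it also on leaving out any 1 library except thymus replicate 3 or spleen replicate 2, with edgeR adjusted p from 0.0103 to 0.049, and by limma on log2 TPM (1.01, adjusted p = 0.139). In iLN against spleen Traf1 was not called, with means of 107 and 114 CPM. The regulatory T cell list was at 31.4 to 47.5 TPM in thymus, 65.3 to 133.5 in spleen and 123.6 to 216.1 in iLN. In these 3 tissues, Il2ra of that list had medians of 2.935, 50.5 and 68.25 TPM and Ikzf2 33.2, 57.7 and 97.2. The medians of its other genes were 4.19 TPM or less there. In mLN, where Traf1 was low, that list was at 75.2 to 128 TPM. The NKT1 list was highest in thymus and the red cell list in spleen. The part of these lists in the Traf1 levels was not tested.

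**Figure D5:**
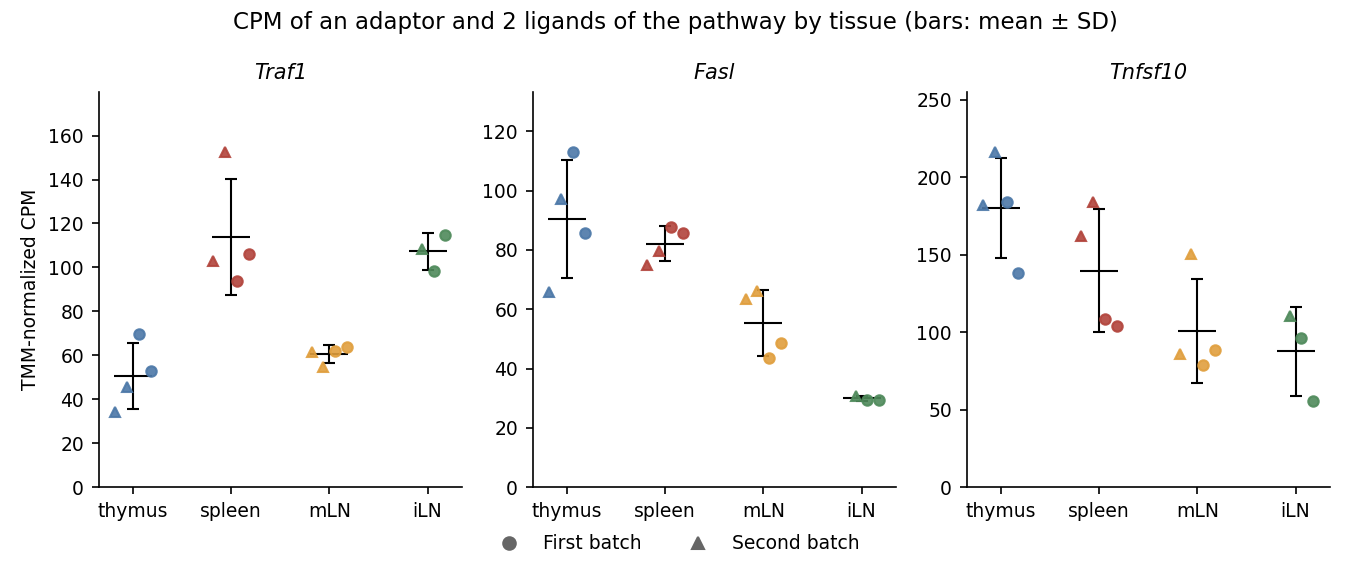
Level of Traf1, Fasl and Tnfsf10 in TMM-scaled CPM (vertical) by tissue (horizontal), 1 point per sample, circles for the first and triangles for the second batch, with bars at the mean ± SD. Spleen and iLN lie above thymus and mLN for Traf1 (means 114, 107, 50.6 and 60.4 CPM), and iLN lies lowest for Fasl (mean 29.9 CPM).

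The genes whose log2(CPM + 1) over the 15 samples was most like that of the called members were found among 10137 genes, with Pearson's r as a description over samples that share tissue, batch and depth. For Tnfrsf25 they were Il2ra, the alpha chain of the interleukin-2 receptor (r = 0.934), and Ckb, a creatine kinase (r = 0.915). Il2ra had a mean of 9.98 CPM in thymus, 129 in spleen, 103 in mLN and 242 in iLN, so it was also lowest in thymus, and it is 1 of the 6 genes in the regulatory T cell list. For Tnfrsf9 they were Lamp1, a lysosomal membrane protein (r = 0.881), and Themis, a T cell signalling protein (r = 0.859), with mean Themis levels of 19.1, 155, 201 and 110 CPM in thymus, spleen, mLN and iLN. For Tnfrsf18 they were Polrmt, the mitochondrial RNA polymerase (r = 0.869), and Als2cl (r = 0.849).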

How the data were processed

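Bulk RNA was sequenced from 15 samples of sorted iNKT cells. Per the submitters' processing notes, the authors trimmed reads with cutadapt 1.7.1, aligned them with Bowtie2 2.2.9 to GRCm38 and quantified genes with RSEM 1.2.31, and the deposited tables give the expected count and TPM of each gene for each sample. The deposited FPKM column was not used. The Ensembl release of the authors' annotation is not given in the sources used here, and GENCODE M21 matched a symbol to 48349 of 48795 gene identifiers.

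Expected counts were rounded to whole numbers, filtered with filterByExpr (13600 genes kept), scaled by TMM and fitted with edgeR 4.0.16 (quasi-likelihood, robust) in R 4.3.3 with tissue and batch as terms. Genes were called at a Benjamini-Hochberg adjusted p under 0.01 over all genes tested and a fold over 1.5, without the fold limit for the test over 4 tissues. The code was tested on simulated data. Total counts ranged from 1152702 to 8670570, and a floor is 3 counts per library. The exact permutation test enumerates all arrangements of 7 lymph node and 8 other samples.

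All 10 members were named. From the other lists, genes called in a tissue pair and the 3 highest by mean TPM were named, Tnfsf10 among them, and like genes were the 2 with the highest r per called member with a mean of at least 5 CPM. Tnfrsf21, Tnfsf11, Birc3 and Tank fall outside that rule and were named after their values were seen, because DESeq2 called them. Tnfrsf11b, Tnfrsf17, Eda2r, Edar and Cd70, each at 0 in all 15 samples, were named outside that rule too. The members and lists were chosen with earlier results of these data known.

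Alternatives were DESeq2 1.42.0, RLE normalization in edgeR, limma 3.58.1 on log2 TPM with pseudocounts of 1 and 0.1, no filter, at least 10 counts in every sample, removal of ribosomal RNA and mitochondrial genes, thinned libraries, only the groups compared, no batch term, each batch alone, a replicate block, TMM CPM in the permutation test and leaving out each library. The permutation test was also run within replicate numbers. Leaving out 3 libraries (spleen replicate 1, thymus replicate 2, mLN replicate 2) was added after seeing the data. Summaries and figures used Python 3.11.15 with matplotlib 3.10.9, scipy 1.17.1, pandas 2.3.3 and numpy 2.4.6. Inguinal replicate 1 was not analysed here.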

Additional observations from a re-analysis of the deposited data

Results flagged for a closer look

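In mLN replicate 1, Tnfrsf9 was at 41.6 CPM, against 92.7, 90.3 and 91.5 CPM in the other mLN samples. What marked it was the gap to its nearest neighbour, which exceeds the 95% critical value of Dixon's test for 4 samples. Chance flags about 1 in 20 groups, and 30 groups of samples were tested, of which this was the 1 to pass.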

How the results depend on the processing

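Over 22 fold changes and differences of single genes, 616 alternative values were computed. Of these, 517 kept their direction and side of the threshold, 83 kept their direction and no longer passed, 16 newly passed and 0 reversed. The 22 were picked from the main results of the same samples. They are members at an unadjusted edgeR p under 0.01, genes that edgeR called, and Tnfrsf9 in the permutation test. A reversal was therefore unlikely from the start, and its absence is no separate support. The 70 fold changes of the members include those of Tnfrsf4. Over all 70, 72 of 1996 alternatives had the other sign, none for a main log2 value above 1.2 in size.

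With DESeq2 the members called were 2 in thymus against spleen, 2 in iLN against mLN and 2 in lymph nodes against spleen and thymus. With no filter on low counts they were 2 in thymus against spleen, 2 in iLN against thymus, 2 in iLN against mLN, 2 in lymph nodes against spleen and thymus and 4 over the 4 tissues, beside 393, 480, 279, 532 and 1134 of 24238 genes. With at least 10 counts in every sample they were 0 in thymus against spleen, 1 in mLN against thymus and 0 in iLN against thymus, where Tnfrsf25 is filtered out. These counts stood beside 159, 169 and 147 of 7827 genes. With only the groups compared the members called were 0 in iLN against spleen (86 of 12468 genes) and 1 in mLN against thymus (179 of 11954). On log2 TPM with a pseudocount of 1 or 0.1 they were 0 in iLN against spleen (87 and 59 of 13600 genes). In the first batch alone they were 0 in thymus against spleen, 1 in mLN against thymus and 1 in lymph nodes against spleen and thymus. These counts stood beside 45, 55 and 95 of 13013 genes. The second batch alone holds 1 iLN sample and few genes were called in it, so its counts of members are not read as a result. Single batches hold fewer samples, and the lone iLN sample of the second is assumed to vary like the other groups. With 3 libraries left out 1 member was called in mLN against thymus, beside 113 of 13173 genes. On TMM CPM the exact permutation test gave 2 members under 0.05, a count with no share over all genes beside it and not read as a result about the members. Where construction does not show it, the cause was not tested.

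Leaving out 1 library at a time gave 1 to 2 members in thymus against spleen, 0 to 1 in iLN against spleen, 1 to 2 in mLN against thymus, 0 to 1 in lymph nodes against spleen and thymus, 1 to 3 over the 4 tissues and 0 to 2 in the permutation test. It gave 0 in mLN against spleen, 1 in iLN against thymus and 0 in iLN against mLN each time. Of the 13436 to 14282 genes tested, 114 to 222 were called in thymus against spleen and 108 to 267 in iLN against spleen. The range was 125 to 235 in mLN against thymus, 158 to 255 in lymph nodes against spleen and thymus and 327 to 493 over the 4 tissues. It was 24 to 99 in mLN against spleen, 104 to 236 in iLN against thymus and 44 to 66 in iLN against mLN.

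Replicate numbers were checked as a pairing. After removal of tissue means, samples with the same number correlated at 0.138 on average and other samples of the same batch at 0.125, with 15 of 21 same-number pairs and 16 of 21 pairs with other numbers above 0.1. The best partner had the same number in 11 of 15 samples. Once batch means were removed too it was 0 of 15, but that step puts every pair within a batch below 0, so it cannot decide on a pairing. Pairs within a batch then averaged −0.099 with the same number and −0.123 with another. A paired fit with a replicate block called 1 member in thymus against spleen, 0 in mLN against spleen, 1 in iLN against spleen, 2 in mLN against thymus, 1 in iLN against thymus, 0 in iLN against mLN and 3 over the 4 tissues. In the same order it called 174, 70, 175, 204, 160, 62 and 398 of 13600 genes.

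Counts over all genes moved too. In the same order of the 6 tissue pairs, edgeR called 179, 89, 211, 217, 204 and 64 genes, DESeq2 387, 248, 556, 414, 472 and 276, edgeR in the first batch alone 45, 0, 81, 55, 114 and 23 and in the second alone 27, 0, 4, 31, 7 and 3. In lymph nodes against spleen and thymus these were 234, 478, 95 and 2, and over the 4 tissues 459, 1002, 180 and 41. The lowest counts without 1 library were 114 in thymus against spleen (thymus replicate 1), 24 in mLN against spleen (mLN replicate 3), 108 in iLN against spleen (spleen replicate 4) and 125 and 104 in mLN and iLN against thymus (thymus replicate 3). Depth limits Tnfrsf4 and, in thymus replicate 2, Tnfrsf25, which rests on 1 count there.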
